A study of Mus musculus with 4 samples.

Results

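Col23a1 fibroblasts are the fibroblasts of the mouse trachea that carried at least 2 UMIs of Col23a1, a collagen that spans the plasma membrane. A UMI is a molecular tag that stands for 1 captured RNA molecule. They numbered 2240 of 7263 fibroblasts, in a series of 35901 cells kept from 39524 barcodes. A fibroblast was a cell with at least 10 UMIs of Col1a1, Col1a2, Col3a1 and Dcn together per 10000 UMIs and with no UMI of Epcam, Ptprc, Pecam1 or Acan. A member also had fewer than 2 UMIs of Prg4 and Kera together and fewer than 2 of Lrat and Bmp5 together, which set aside perichondrial-like and dorsal-type fibroblasts. The working label called these cells ventral-type. Of the 2240, 1493 (66.7%) came from ventral and 747 from dorsal tissue, so they are called here by their gene.

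The study profiled single cells of dorsal and ventral trachea, taken 10 days after tamoxifen, with the GEM-X 5′ kit of 10x Genomics after papain digestion. Every mouse, controls included, carried P63-CreER, Ki67-lsl-Dre and Rosa26-rsr-GFP and received tamoxifen. The control libraries came from Ctnnb1-fl/+ mice and the knockout libraries from Ctnnb1-fl/fl mice. Each genotype and region had 1 library, and every set of 4 values in the text gives the dorsal and ventral controls first and the dorsal and ventral knockouts last. CreER sits under P63, a gene of basal epithelial cells, so fibroblasts were not the targeted cells. The controls carry 1 floxed allele and the same recombinases as the knockouts. How many mice went into each library, and their sex and age, were not stated in the sources used here. With 1 library a group there is no replicate, no test was run, and every interval (95%) covers counting error only.

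Fibroblasts build and renew the matrix of the airway wall, and populations that lie close to epithelium also send it Wnt, BMP and growth factor signals. Hedgehog ligands made by the epithelium act on neighbouring fibroblasts, which answer with feedback inhibitors such as Hhip. In the trachea the mesenchyme is patterned from back to front: smooth muscle spans the dorsal wall and cartilage rings support the ventral and lateral wall. Plpp3 is a phosphatase of lipid signals at the cell surface, Dpt (dermatopontin) is a matrix protein that binds decorin and Igfbp4 binds insulin-like growth factors.

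Members had a median of 8453, 11839, 10126 and 10006 UMIs per cell, against 8281, 9936, 10081 and 9030 in all other fibroblasts. Levels are given as CPM, the UMIs of a gene scaled to 1000000 UMIs of all members in a library. Ctnnb1, the deleted gene, stood at 117, 152, 89.1 and 129.9 CPM in members and at 274, 274, 208 and 227 CPM in basal cells. Reads at the 5′ end need not lie in the deleted part, so these levels do not check the deletion. A doublet caller marked 2, 2, 0 and 2 members, and 1 member barcode was shared by the knockout libraries. The knockout dorsal library stood apart: it held 267 members, and 92.1% of them fell in a single cluster of member cells. Its ribosomal protein genes took 14% of the members' UMIs, against 10.2%, 10.8% and 10.1% in the others. Each result that uses this library is therefore printed for its own pair, beside the pair without it.

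Members were a larger share of fibroblasts in ventral than in dorsal tissue of both genotypes, and a smaller share in both knockout libraries than in their controls. They made up 22.9% (21.2 to 24.8) of 2092 fibroblasts in the control dorsal library and 49.1% (46.7 to 51.4) of 1741 in the control ventral library. In the knockouts they were 14.4% (12.9 to 16.1) of 1851 dorsal fibroblasts and 40.5% (38 to 42.9) of 1579 ventral ones. The dorsal share lay below the ventral share by 26.1 percentage points (23.1 to 29.1) in controls and by 26.0 (23.1 to 29.0) in knockouts. The knockout share lay below the control share by 8.52 points (6.06 to 11) dorsally and by 8.58 (5.16 to 12) ventrally. When every fibroblast was thinned to 6000 UMIs before the threshold was applied, which left out shallower cells, the shares were 22.3%, 48.7%, 11% and 38.4%. The order of the 4 libraries was the same. Because Col23a1 itself chose the cells, a lower Col23a1 level and fewer cells of this kind cannot be told apart in these shares. Col23a1 in members was 926, 1334, 511 and 929 CPM, and its median was 5, 11, 4 and 7 UMIs per member.

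The Col23a1 threshold cut through a continuous range, with no gap between members and the cells just outside. Among fibroblasts that met the Prg4, Kera, Lrat and Bmp5 limits, here called candidates, 754 of 1430 in the control dorsal library had no Col23a1 UMI. Cells just outside, at 1 UMI, numbered 196, 121, 160 and 119, and cells just inside, at 2 UMIs, numbered 91, 72, 80 and 87. At 6 or more UMIs there were 232, 625, 76 and 364. Plpp3 was 1475, 1324, 2093 and 2331 CPM in the cells at 1 UMI and 1835, 1582, 2631 and 2840.4 CPM in those at 2. The fibroblast threshold cut a tail as well: 14, 67, 32 and 104 cells had at least 2 Col23a1 UMIs and no UMI of the 4 excluded genes but fell under 10 fibroblast UMIs per 10000.

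**Figure D1:**
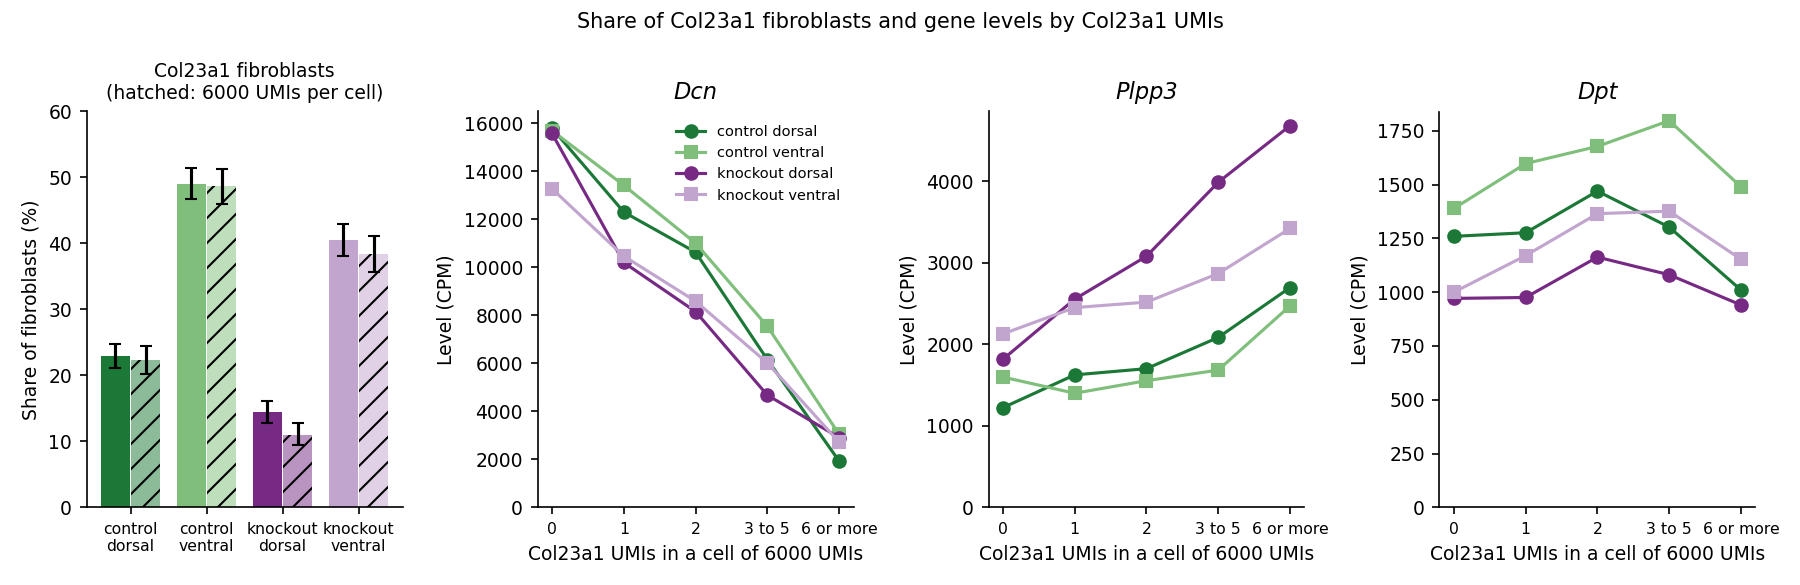
The left panel gives the share of Col23a1 fibroblasts among fibroblasts (percent, bars from 0, error bars are exact 95% intervals for counting), as found and, hatched, in cells thinned to 6000 UMIs. The other panels give the CPM of Dcn, Plpp3 and Dpt in candidate fibroblasts of each library by their Col23a1 UMIs after thinning: Dcn is lower at each step from 0 to 6 or more UMIs in all 4 libraries and Plpp3 is highest at 6 or more.

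Of the 3 other marker genes of the label, Plpp3 differed most between thinned candidates at 0 and at 6 or more Col23a1 UMIs, and Dpt least. Plpp3 was 1221, 1597, 1814.5 and 2126 CPM at 0 and 2694.5, 2470, 4679 and 3419 CPM at 6 or more. In the control ventral library it was 1682 CPM at 3 to 5 UMIs, near its level at 0. Below, Plpp3 is set against all other fibroblasts, and Dpt and Igfbp4 against candidates. Plpp3 was 2212, 2101, 3500 and 2933 CPM in members and 1307, 1211, 1770 and 1931 CPM in other fibroblasts. Dpt was 1250, 1617, 1030 and 1259 CPM in members, 1.01, 1.13, 1.06 and 1.22 times its level in candidates with fewer than 2 Col23a1 UMIs. Igfbp4 was 1773, 2025, 1490 and 2639 CPM in members and 1377, 1770, 1403 and 2109 CPM in those candidates. Dpt and Igfbp4 were thus close to their level in candidates, and each was found in nearly every fibroblast. Dcn, the proteoglycan decorin and part of the fibroblast rule, was 5943, 5884, 6239 and 5669 CPM in members against 15500, 22150, 16400 and 20830 CPM in other fibroblasts. In candidates thinned to 6000 UMIs, Dcn went from 15792, 15691, 15574 and 13271 CPM at no Col23a1 UMI to 1925, 3043, 2908 and 2715 CPM at 6 or more. Col1a1, the main chain of type I collagen, was 1524, 1459.9, 436 and 533 CPM at no Col23a1 UMI and 1472, 1039, 599 and 608 CPM at 6 or more, so it did not share the steps of Dcn.

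Members carried few transcripts of most other cell types, while the sum of 8 pericyte markers was above its level in other fibroblasts in all 4 libraries. The 12 perichondrial-like markers, with 1 to 5 of them at 0, summed to between 24.5 and 38.8 CPM in members of the 4 libraries, against 1074 to 2625 CPM in other fibroblasts; the rule had removed cells with Prg4 or Kera. The 9 smooth muscle markers summed to 341, 230, 110 and 151 CPM in members and 376, 192, 113 and 97 CPM in other fibroblasts, so they were higher in members ventrally. At least 2 UMIs of the smooth muscle myosin Myh11 were found in 56 members. With 1 to 4 of them at 0, the 10 endothelial markers summed to between 11.5 and 21 CPM and the 11 epithelial markers to between 25.5 and 108 CPM. Pericyte markers, with 1 or 2 of them at 0, summed to between 240 and 287 CPM, against 137 to 202 CPM in other fibroblasts. That list includes Pdgfrb, also used as a fibroblast marker, which stood at 71.3 to 154 CPM across the clusters of members. Rgs5 was at 0 in both dorsal libraries, and Higd1b was at 0 in all libraries but the control dorsal one. Thyroid markers reached 98.4 CPM in the control ventral library and 12.9 CPM or less in the others, and that library held 248 thyroid cells. Ptprc, Pecam1, Epcam and Acan were at 0 by the rule, and the B cell gene Ms4a1 and the thyroid factor Pax8 were at 0 in all 4 libraries. The part of these transcripts in the results was not tested. Pi16, a marker of adventitial fibroblasts, was found in like shares of members and other candidates, which does not mean like levels. At least 2 Pi16 UMIs were found in 302, 457, 177 and 372 members. At least 2 UMIs of Pi16 and its companion marker Dpp4 together were found in 62.9%, 53.5%, 66.3% and 58.2% of members. In candidates with fewer than 2 Col23a1 UMIs the shares were 65.1%, 58.1%, 61.2% and 56.4%. Dpp4 alone was rare: at least 2 UMIs were found in 0, 4, 0 and 0 members and in 59, 51, 37 and 40 of all fibroblasts. In thinned candidates, the Pi16 level was 1116, 1580, 753 and 1462 CPM at no Col23a1 UMI. At 6 or more Col23a1 UMIs it was 441, 256, 785 and 502 CPM, lower in all libraries but the knockout dorsal one. The 10 adventitial markers summed to 2005, 1360, 1728 and 1720 CPM in members. In other fibroblasts they summed to 4364, 3800, 3154 and 3585 CPM.

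Col23a1 was not limited to members or to fibroblasts. Smooth muscle cells held 402, 1865, 168 and 1008 CPM, with 24.5% of 49 control dorsal cells and 89.7% of 78 control ventral cells at 2 UMIs or more. These cells were called by at least 2 Myh11 UMIs and were not kept apart from fibroblasts. Among them were 7, 35, 0 and 14 members, so their Col23a1 values are in part set by the member rule. Endothelial cells stood at 202, 499, 107 and 416 CPM, dorsal-type fibroblasts at 485, 559, 230 and 139 CPM, and epithelial cells at 4.00, 10.9, 3.63 and 7.70 CPM. A Col23a1 level of at least 2 UMIs was found in 1.13% of control dorsal epithelial cells, at a median of 22768 UMIs, and in 10.0% of other fibroblasts of that library, at 8281.

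The members were chosen by their own Col23a1, Prg4, Kera, Lrat and Bmp5 counts, so the comparison with other fibroblasts describes what goes with Col23a1 and nothing in it is a test. The hedgehog inhibitor Hhip, the Wnt ligand Wnt16, the Wnt inhibitor Notum, Bmp7, Igf2 and the mesenchyme factor Tbx4 were among the genes higher in members of all 4 libraries. Fn1, Postn, Igfbp5 and Sfrp4 were among those lower. Across genes with at least 20 CPM and 50 UMIs, 2.56%, 4.94%, 2.44% and 4.25% were at least 2-fold higher in members of the 4 libraries, and 2.23%, 3.55%, 2.16% and 2.99% were at least 2-fold lower. In all 4 libraries at once, 74 of 5922 genes were at least 2-fold higher (1.2%) and 68 were at least 2-fold lower (1.15%).

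Hhip binds hedgehog ligands and blocks them. It was 506, 439, 334 and 363 CPM in members and 83.6, 43.3, 58.1 and 28.4 CPM in other fibroblasts, a ratio of 6.05, 10.1, 5.75 and 12.8. The lowest member library stood above the highest library of other fibroblasts. Other targets of the hedgehog pathway did not share this: Gli1 was 5.5, 4.16, 4.44 and 4.08 CPM in members and 6.38, 7.28, 5.41 and 4.46 in other fibroblasts, and Ptch1 13.4, 12.7, 9.24 and 11.9 against 11.7, 13.6, 9.97 and 12.3 CPM. In cells thinned to 6000 UMIs, a Hhip UMI was found in 60.3%, 51.6%, 53.8% and 46.6% of members and in 13.5%, 5.93%, 16.8% and 9.06% of the candidates under 2 Col23a1 UMIs.

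The Wnt ligand Wnt16 was 100, 136, 22.2 and 59.7 CPM in members and 5.0, 6.14, 3.54 and 2.35 CPM in other fibroblasts, the largest ratio of the 30 genes named in this comparison, at 20.0 (15.5 to 26.2) in the control dorsal library. Notum, an enzyme that inactivates Wnt proteins by removing their lipid, was 68.2, 100, 57.7 and 84.8 CPM against 19, 8.53, 11.1 and 6.33 CPM. Wif1, a secreted protein that binds Wnts, was 209, 238, 154 and 207 CPM in members. Wnt16 and Notum were thus both higher in members, while the secreted antagonist Sfrp1 was 18.4, 27.2, 32.5 and 15.3 CPM in members against 46, 184, 77.3 and 183 CPM in other fibroblasts. Sfrp4, of the same family, was 6.7, 1.65, 0.739 and 0.756 CPM against 216, 110.4, 21.1 and 32.5 CPM. Of the measured Wnt ligands and regulators, 4 of 23, 6 of 23, 6 of 24 and 6 of 24 were at least 2-fold higher and 5, 7, 7 and 8 were at least 2-fold lower. Over all genes measured in the same way, with at least 20 UMIs, 3.32%, 6.46%, 4.23% and 5.70% were higher and 4.96%, 5.50%, 5.88% and 5.00% were lower.

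Genes known to be switched on by beta-catenin were higher in some cases. Tnfrsf19, a receptor of the TNF family, was 59.1, 55.9, 33.6 and 52.9 CPM in members and 14.3, 6.59, 10.6 and 3.99 CPM in other fibroblasts. Tcf7, which encodes the transcription factor TCF1, was 16.3, 10.6, 10.7 and 10.9 against 7.83, 2.39, 3.24 and 3.28 CPM, and Axin2, a feedback inhibitor, 34.7, 26.6, 34.8 and 27.7 against 19.7, 14.9, 14.2 and 14.2 CPM. All 3 were higher in members of every library, with Axin2 below 2-fold in 3 of them. Of the measured Wnt targets, 3 of 15, 2 of 15, 6 of 14 and 4 of 15 were at least 2-fold higher, and at most 1 was lower. The shares over all genes are those given for the Wnt ligands and regulators.

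Among other secreted signals, the ligand Bmp7 was 63.2, 35.8, 38.1 and 27.8 CPM in members and 15.7, 3.52, 9.67 and 3.99 CPM in other fibroblasts. Igf2, a growth factor, was 114, 155, 125 and 243 against 36.5, 34.4, 36.2 and 52.5 CPM. Igfbp3, which binds such factors, was 1161, 1311, 741 and 1571 against 306, 208, 260.5 and 319 CPM, and its relative Igfbp5 went the other way with 122, 131, 69.5 and 154 against 1235, 1492, 1007 and 1224 CPM. The binding proteins of the insulin-like growth factors were thus split between the cell groups. Nrg2, a ligand of ErbB receptors, was 89, 52.5, 55.1 and 42.2 CPM in members and 35.2, 11.9, 14.2 and 10.3 CPM in other fibroblasts, and the vascular growth factor Vegfa 322, 356, 233 and 333 against 149, 107, 113 and 134 CPM. Ccbe1, which helps to activate the lymphatic growth factor VEGF-C, had ratios of 3.85, 4.75, 3.58 and 3.49. The chemokine Ccl11, which draws eosinophils, was 10.3, 11.2, 24 and 16.5 CPM in members and 208, 156, 495 and 132 CPM elsewhere among fibroblasts, and the alarm cytokine Il33 60.8, 49, 48 and 85.7 against 156, 207, 191 and 294 CPM.

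Tbx4 is a transcription factor of lung and tracheal mesenchyme. It was 140, 128, 122 and 147 CPM in members against 37.5, 22.2, 39.7 and 26.3 CPM in other fibroblasts, a narrow range over the 4 member libraries that did not meet the range of the others. Foxf2, a forkhead factor of mesenchyme that lies beside endoderm, had ratios of 3.18, 4.83, 3.88 and 6.37, and Tbx2 ratios of 2.23, 3.52, 2.78 and 4.0. Ebf1 was 82.6, 148, 110.2 and 166 CPM in members and 486, 541, 507 and 585 CPM in other fibroblasts, and Ebf2 had ratios of 0.317, 0.162, 0.333 and 0.187. Of the regional regulators measured, 4 of 53, 7 of 54, 4 of 51 and 6 of 50 were at least 2-fold higher and 9, 14, 10 and 11 were lower, so more of the list was lower. The shares over all genes were 3.32%, 6.46%, 4.23% and 5.70% higher and 4.96%, 5.50%, 5.88% and 5.00% lower. Crabp1, which binds retinoic acid in the cytoplasm, had ratios of 5.08, 9.77, 7.23 and 8.77. S1pr3, a receptor for the lipid sphingosine-1-phosphate, had ratios of 3.17, 3.07, 4.1 and 2.98.

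Most small proteoglycans of the matrix were 2-fold lower in members, and other matrix groups were mixed. Of the small leucine-rich proteoglycans measured, 8 of 14, 8 of 14, 7 of 12 and 9 of 13 were at least 2-fold lower in members and none was 2-fold higher. That list includes Kera, which the rule limited in members, Dcn, part of the fibroblast rule, and the perichondrial-like markers Fmod and Chad. Other fibroblasts keep the perichondrial-like cells that the rule set aside from members. How much of these counts follows from the rule was not tested. Lum (lumican) was 626, 141, 434 and 102 CPM in members and 1636, 888, 1050 and 572 CPM in other fibroblasts. Fn1, fibronectin, was 98.6, 44.3, 30.3 and 28.6 against 578, 560.4, 225 and 234 CPM. Postn, periostin, had 7.42, 1.35, 0 and 1.66 CPM in members against 195, 245, 41.3 and 52.7 CPM, and Thbs4, a thrombospondin of tendon and cartilage surroundings, 0, 1.65, 0 and 2.27 against 138, 506, 50.5 and 339.5 CPM. A count of 0 allowed up to 0.718 CPM in the control dorsal and 1.11 CPM in the knockout dorsal library (3 UMIs). Among matrix genes that were higher, Spon1, an adhesive matrix protein also called F-spondin, was 445, 458, 369 and 658 against 134, 83.5, 125 and 96.5 CPM. Lamc3, a laminin chain of basement membranes, was 58.6, 70.3, 52.5 and 64.5 against 15.7, 8.3, 19.3 and 5.86 CPM, and the membrane collagen Col13a1 43.1, 29, 39.9 and 26.9 against 16.5, 5.34, 13.3 and 3.99 CPM. None of the 15 measured interstitial collagens was 2-fold higher in any library, and 2, 8, 3 and 4 were 2-fold lower. Of other matrix glycoproteins, 13 of 32, 15 of 30, 9 of 29 and 15 of 30 were lower and 3, 5, 4 and 3 higher. Basement membrane genes were split, with 2 of 22, 4 of 23, 2 of 21 and 5 of 23 higher and 2, 5, 3 and 2 lower. Elastic fibre genes had 1, 1, 0 and 2 higher and 5, 6, 4 and 5 lower of 22 or 23 measured. Matrix proteases and their inhibitors had 1, 3, 1 and 2 higher and 1, 4, 3 and 2 lower of 29 to 31. For all these matrix lists the shares over all genes are those given for the regional regulators, and several protease counts lie near them.

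Other fibroblasts include 1903 perichondrial-like cells, which the rule set aside. Against candidates under 2 Col23a1 UMIs, which lack those cells, the ratios of Hhip were 8.8, 12.7, 4.78 and 11.1, those of Wnt16 20.5, 164, 4.53 and 22.7 and those of Tbx4 4.9, 6.5, 3.23 and 4.67. For Wnt16 in the control ventral library, where candidates were near 0, the ratio was 164 (55.9 to 794). Igfbp5 kept ratios of 0.172, 0.0895, 0.123 and 0.155 and Fn1 of 0.218, 0.0704, 0.26 and 0.123. All 30 genes named by rule kept their direction in all 4 libraries. For Thbs4 in the knockout ventral library the ratio was 0.554 (0.249 to 1.24), in place of 0.00668 (0.00373 to 0.011) against all other fibroblasts. For Igfbp3 in the knockout dorsal library it was 1.87 (1.76 to 1.98).

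**Figure D2:**
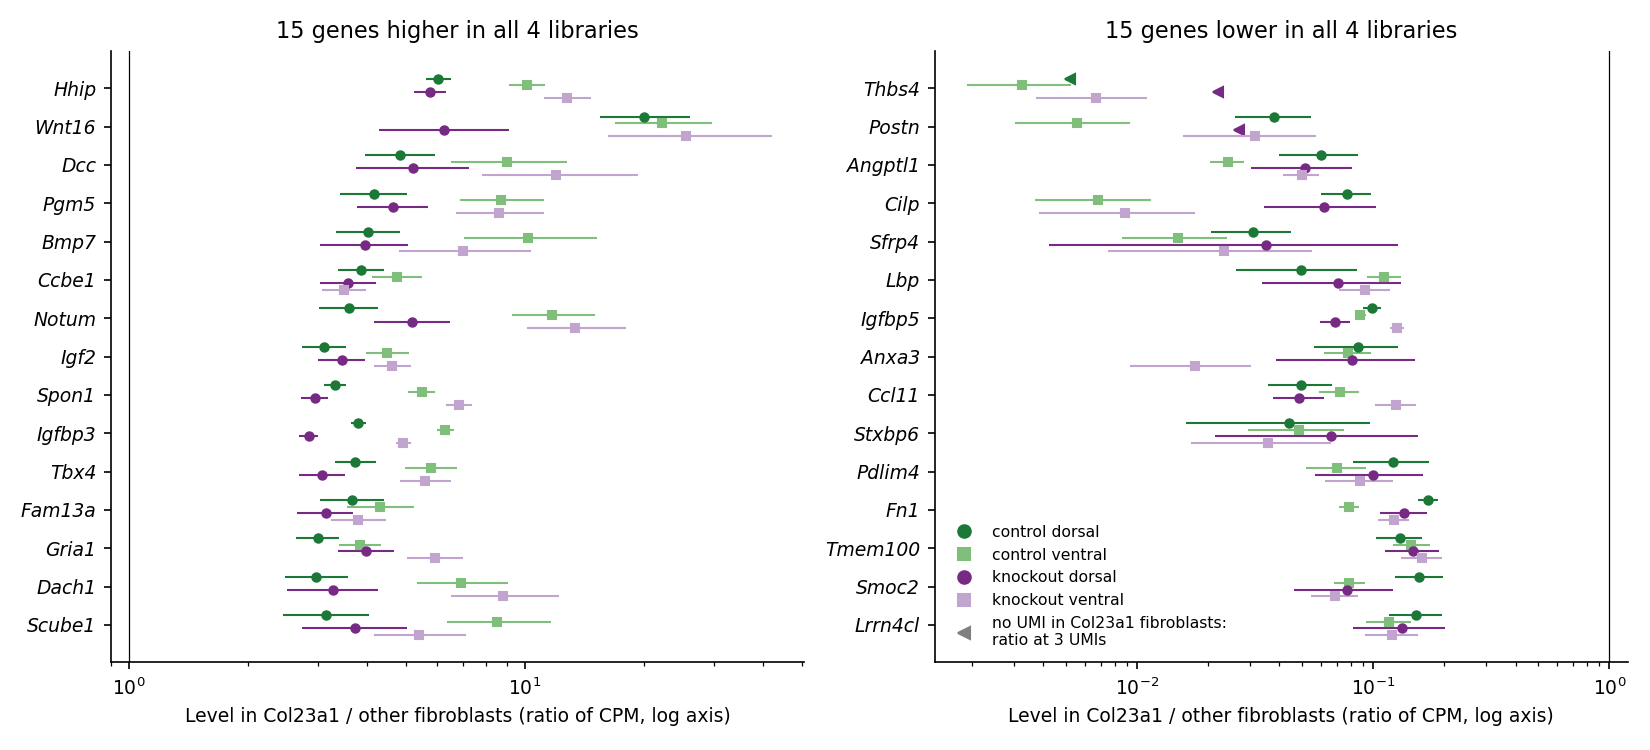
Ratio of CPM in Col23a1 fibroblasts to CPM in other fibroblasts (log axis) for the 15 genes named as higher and the 15 named as lower, 1 point per library with its 95% counting interval; arrowheads show libraries with no UMI in members, drawn at the ratio that 3 UMIs would give. All points for the genes named as higher lie above 1 and all points for those named as lower lie under 1, and Wnt16 has the highest ratio in all 4 libraries.

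Genes that respond to interferon were higher in members, least so in the knockout dorsal library. Of the interferon and class I genes measured, 20 of 35, 18 of 35, 4 of 33 and 16 of 33 were at least 2-fold higher and none was 2-fold lower, with the shares over all genes at 3.32%, 6.46%, 4.23% and 5.70%. Iigp1, a GTPase that acts against microbes inside cells, was 306, 338, 87.2 and 269 CPM in members and 69, 78.7, 40.3 and 47.1 CPM in other fibroblasts. Cxcl10, a chemokine for T cells, was 358, 261, 88.7 and 134 against 50.4, 41.1, 40.1 and 18.4 CPM. H2-K1, a class I antigen-presenting molecule, was 625, 670, 575 and 651 against 342, 271, 377 and 286 CPM. The knockout dorsal library had the lowest level of all 3. Set against the candidates instead, the counts of genes 2-fold higher were 19 of 35, 10 of 35, 1 of 31 and 12 of 33. The shares over all genes against candidates are not given here. Immune markers, with Ptprc at 0 by the rule, summed to 102, 168, 68.8 and 275 CPM in members and 98.4, 171, 87.1 and 308 CPM in other fibroblasts.

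A few cells held much of the signal for some of these genes. A cluster of 14 members, 11 from the control dorsal and 3 from the control ventral library, had 2975 CPM of Ifit3, against at most 37.5 CPM in any other cluster of members. In it Rsad2, Isg15 and Ifit1, antiviral proteins like Ifit3, were 963, 3553 and 1669 CPM. The sequences upstream of these 4 genes are printed because the genes were high together in the same 14 cells. They are RefSeq sequences of build GRCm38.p6, while the counts were made on GRCm39. Each is the 170 bases before the annotated start, written 5′ to 3′ in the direction of the gene. Ifit3 is at chr19:34583359-34583528 (plus strand), Rsad2 at chr12:26456453-26456622 (minus strand), Isg15 at chr4:156200819-156200988 (minus strand) and Ifit1 at chr19:34640719-34640888 (plus strand). Capitals mark GAAA, any 2 bases and GAAA again, the core of the interferon-stimulated response element, or the reverse complement, TTTC, any 2 bases and TTTC.
Ifit3: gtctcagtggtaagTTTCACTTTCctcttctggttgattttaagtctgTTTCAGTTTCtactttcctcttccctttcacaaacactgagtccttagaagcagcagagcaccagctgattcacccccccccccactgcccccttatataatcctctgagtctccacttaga
Rsad2: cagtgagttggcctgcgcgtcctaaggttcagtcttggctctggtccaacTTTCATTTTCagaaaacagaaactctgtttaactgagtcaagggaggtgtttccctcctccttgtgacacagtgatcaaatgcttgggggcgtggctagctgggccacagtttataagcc
Isg15: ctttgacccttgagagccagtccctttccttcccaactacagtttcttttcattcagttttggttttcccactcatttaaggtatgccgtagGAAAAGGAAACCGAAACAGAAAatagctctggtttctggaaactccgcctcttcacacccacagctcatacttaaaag
Ifit1: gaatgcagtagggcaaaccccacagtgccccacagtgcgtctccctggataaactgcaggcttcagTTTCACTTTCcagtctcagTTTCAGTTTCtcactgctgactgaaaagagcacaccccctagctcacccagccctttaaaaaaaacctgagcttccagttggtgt
The element was found 2 times in Ifit3, 1 time in Rsad2, 3 times with overlap in Isg15 and 2 times in Ifit1. In the 250 bases before the start, 17 of the 29 list genes with a RefSeq entry (of 35 on the list) held it, against 3.46% of 27025 genes. A match is a description of letters and shows no binding. Without this cluster and cluster 6, a group of 52 members, the interferon counts against other fibroblasts were 9 of 33, 15 of 35, 4 of 33 and 17 of 33. The shares over all genes without these clusters are not given here.

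Members differed among themselves along lines that divided the libraries. Grouping by their own counts (Leiden, 2000 variable genes) gave 8 clusters, and they are named here by number and leading genes only. Cluster 2 (381 cells) led with Wnt16, Igfbp2, Crabp1 and Bmp7. It held 441 CPM of Wnt16, 268 CPM of Notum and 1253 CPM of Hhip, with the highest median Col23a1 at 17 UMIs and the lowest Dcn at 562 CPM. Its Col1a1 was 1043 CPM. At least 2 UMIs of Myh11 were found in 9.97% of its cells, and Myh11 was among its leading genes. Cluster 1 (518 cells) led with Dlk1, Myoc, Prss23 and Rspo3, the last a secreted protein that strengthens Wnt signals. There Rspo3 was 163 CPM, Dcn 12270 CPM, Wnt16 0.557 CPM and the median Col23a1 5 UMIs.

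The remaining clusters carried other genes. Cluster 0 (537 cells) led with the thyroid gene Tg, present in 17.3% of its cells, then Paqr6, Tmem52, Lrp4 and Ccn4, a matricellular Wnt target. Cluster 4 (229 cells) led with Tll1, Has1 and Gch1 and held 1793 CPM of Has1, a hyaluronan synthase, and 426 CPM of Il6, an inflammatory cytokine. Cluster 5 (194 cells) led with C1qtnf3, Itih5, Igfbp6 and Lum, and Igfbp6 was 4081 CPM. Cluster 3 (315 cells) held 246 of the 267 knockout dorsal members and led with Lin28b, Tmem150c and Ifitm1. Cluster 6 (52 cells) had a median of 2288 UMIs and led with genes of ciliated and other epithelial cells, and it stays unnamed.

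The libraries filled these clusters unequally. Cluster 5 held 36.3% of control dorsal members, cluster 2 held 26.5% and cluster 1 held 10.4%. In the control ventral library cluster 1 held 35.1%, cluster 0 held 26.8% and cluster 2 held 19.7%. Knockout ventral members were 45.1% in cluster 0, 26.3% in cluster 1 and 12.7% in cluster 2. Clusters 1, 4 and 7 held no knockout dorsal member. Library and group are the same here, so a cluster filled by 1 library and a state of that group cannot be told apart.

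**Figure D3:**
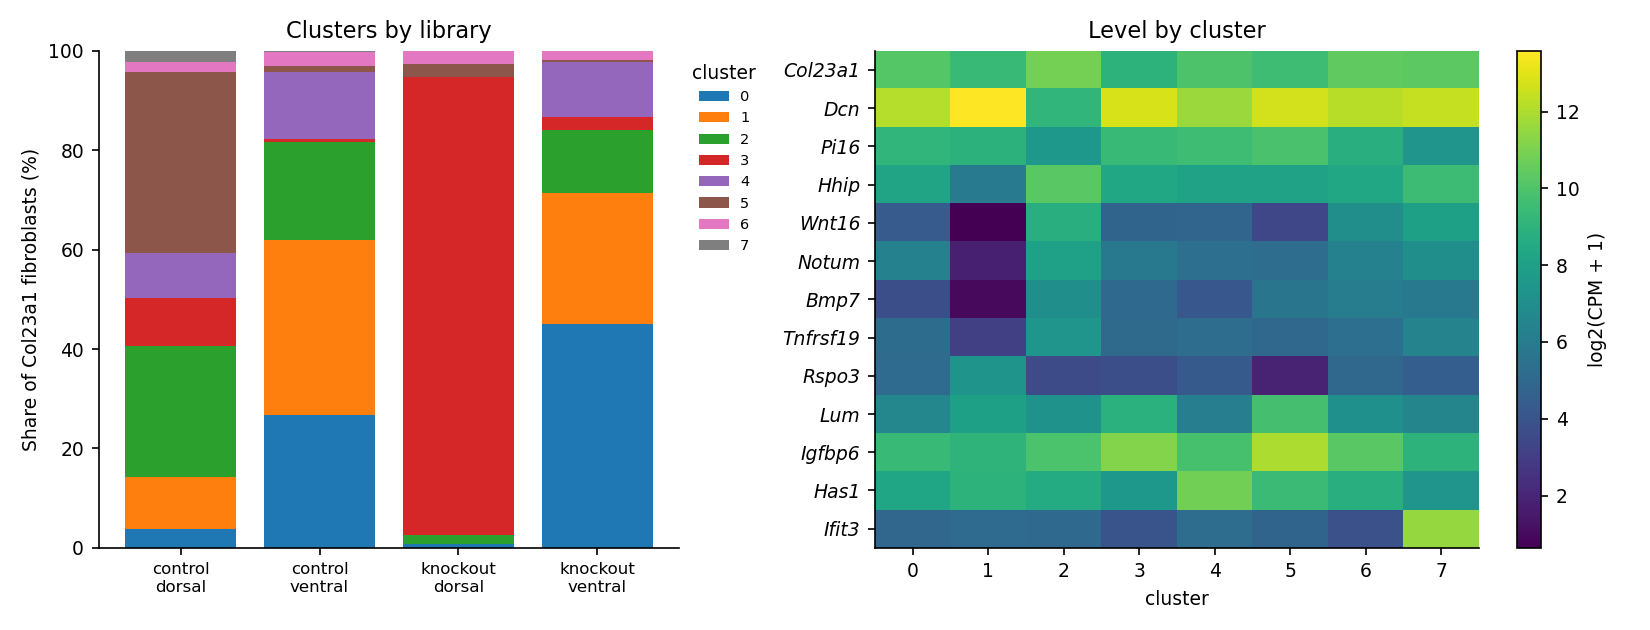
The left panel stacks the share of each library's Col23a1 fibroblasts in the 8 clusters (percent); the right panel gives the level of 13 genes in each cluster as log2(CPM + 1). Cluster 3 takes 92.1% of the knockout dorsal bar, cluster 2 has the highest Wnt16, Notum and Hhip, and cluster 7 has the highest Ifit3.

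Leading genes of clusters 2 and 1 were also counted cell by cell in members thinned to 6000 UMIs, as gene groups chosen after their values were seen. At least 2 UMIs of Wnt16, Igfbp2, Notum, Bmp7 and Hhip together were found in 55.5%, 43.1%, 44.4% and 39.6% of members. At least 2 UMIs of Dlk1, Myoc, Rspo3, Prss23 and Cyp1b1 together were found in 13.3%, 38.4%, 7.69% and 29.0%. Few members had both, 2.51%, 6.40%, 0% and 3.24%, and 33.7%, 24.8%, 47.9% and 34.7% had neither. In candidates under 2 Col23a1 UMIs the order of the groups was the reverse, with 7.91%, 3.33%, 11.5% and 6.04% for the Wnt16 group and 49.9%, 76.7%, 34.1% and 62.3% for the Dlk1 group. Members with the Wnt16 group had medians of 9, 22, 5 and 11 Col23a1 UMIs, and those with the Dlk1 group 4, 7, 2.5 and 5. The Dlk1 group thus went with fewer Col23a1 UMIs, inside the threshold and outside it.

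Between dorsal and ventral members, few genes differed 2-fold in controls, and far more were lower dorsally in knockouts. In the control pair 0.864% of 6830 genes were at least 2-fold higher dorsally and 1.3% at least 2-fold lower. In the knockout pair 1.04% of 6914 genes were higher and 8.66% lower. Both pairs, which share no library, together held 20 of 6510 genes 2-fold higher dorsally (0.307%) and 57 lower (0.876%). In the knockout pair the median log2 ratio was 0.20 among genes with transcripts up to 2364 bases and -0.43 among genes from 4599.7 bases, so the excess of lower genes moved with length; its part was not tested. Another scaling, by the median of gene ratios, moved all log2 ratios of that pair by 0.11.

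Genes higher in dorsal members included secreted and surface proteins. C1qtnf3, a secreted relative of complement C1q, was 103, 2.52, 31.4 and 2.42 CPM, and dorsal over ventral was 40.8 (27.5 to 63.2) in the control pair and 13 (7.56 to 23.8) in the knockout pair. Of its UMIs in control dorsal members, 385 came from the 174 cells of cluster 5, which held 10 control ventral cells. In cluster 1 it was 0 UMIs in 50 dorsal cells and 2.66 CPM in 300 ventral cells of the controls. Without members positive for Pi16 or Dpp4 the control ratio was 18.4. Lum was 626, 141, 434 and 102 CPM, with ratios of 4.43 (4.15 to 4.73) in the control pair and 4.24 (3.85 to 4.67) in the knockout pair. Aspn, another small proteoglycan that binds collagen, was 208, 40.0, 203 and 31.9 CPM. For these 3 genes both dorsal libraries lay above both ventral libraries by 3-fold or more. Igfbp6, which binds insulin-like growth factors with a preference for Igf2, was 2471, 629, 2371 and 836 CPM, and the surface protein Thy1 was 160.3, 34.6, 136 and 21.9 CPM. Ifitm1 was 177, 54.7, 528 and 54.6 CPM, with its highest level in the knockout dorsal library. Epha3, an ephrin receptor, was 35.4, 4.74, 38.8 and 10.1 CPM and Cxcl14, a chemokine, 30.1, 4.26, 41 and 4.38 CPM.

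Genes lower in dorsal members were led by Sorcs1, a sorting receptor, at 10.5, 78, 5.91 and 65.5 CPM and ratios of 0.135 (0.0973 to 0.183) in the control pair and 0.0903 (0.0512 to 0.148) in the knockout pair. Dlk1, a noncanonical Notch ligand, was 65.3, 207, 48 and 141 CPM, and its control ratio of 0.315 became 0.528 without members positive for Pi16 or Dpp4. Prss23, a secreted protease, was 21.5, 77.7, 17 and 61.2 CPM, with ratios of 0.277 in the control pair and 0.278 in the knockout pair. Without members positive for Pi16 or Dpp4 its ratios became 0.521 and 0.552, less than 2-fold. The 3 genes share the same split, with no overlap between dorsal and ventral libraries. Rspo3 was 27, 70.5, 9.98 and 55 CPM and Lrp4, a receptor for agrin, 15.6, 45.7, 8.5 and 49.9 CPM. Within cluster 1, where Dlk1 was highest, Dlk1 was 541 CPM in 50 dorsal and 584 CPM in 300 ventral cells, and Rspo3 198 and 161 CPM. That cluster held 10.4% of control dorsal and 35.1% of control ventral members. The proteoglycan and surface genes that marked dorsal members were not the dorsal-type markers, which the rule had limited: Bmp5 was 12.4, 1.26, 12.9 and 1.51 CPM in members. The regional split was not particular to members. Other fibroblasts had Thy1 at 192, 63, 98.9 and 56.8 CPM and Dlk1 at 92.7, 796, 46.8 and 592 CPM. C1qtnf3 ran the other way there, at 59.9, 94.5, 13 and 32.3 CPM. Across genes, which are not independent, dorsal over ventral in members and in other fibroblasts had Pearson's r of 0.739 in controls and 0.813 in knockouts.

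Some transcription factors split by region. Nkx6-1, a homeobox factor, was 18.9, 0.581, 20.7 and 1.06 CPM, and dorsal over ventral was 32.5 (14.3 to 91.4) in the control pair and 19.6 (8.89 to 50.9) in the knockout pair. Isl1, a LIM-homeobox factor, was 0.479, 10.4, 0 and 9.22 CPM. The 2 genes mirrored each other, Nkx6-1 in dorsal and Isl1 in ventral members, and other fibroblasts showed the same with 25.2, 2.84, 19.1 and 1.99 CPM and 0.58, 18.6, 0.42 and 16.2 CPM. Within cluster 2, which both control libraries filled, Isl1 was 0.919 CPM in 127 control dorsal and 18.3 CPM in 168 control ventral cells. Hoxb5, a homeobox gene of position along the body axis, was 10.1, 3.0, 13.3 and 3.17 CPM, and Pax9, a paired-box factor, 9.09, 21.6, 6.65 and 23.4 CPM. Of the regional regulators measured, 1 of 51 was 2-fold higher and 9 were lower dorsally in controls, and 1 of 45 was higher and 14 lower in knockouts, against 1.48% and 5.46%, then 1.46% and 13.1%, of all genes. Over the 15 genes named as higher in members, dorsal over ventral ran from 0.633 (Scube1) to 1.76 (Bmp7) in the control pair and from 0.371 (Wnt16) to 1.37 (Bmp7) in the knockout pair. Wnt16 and Igfbp3 were more than 2-fold lower dorsally in the knockout pair, with 0.471 for Igfbp3.

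**Figure D4:**
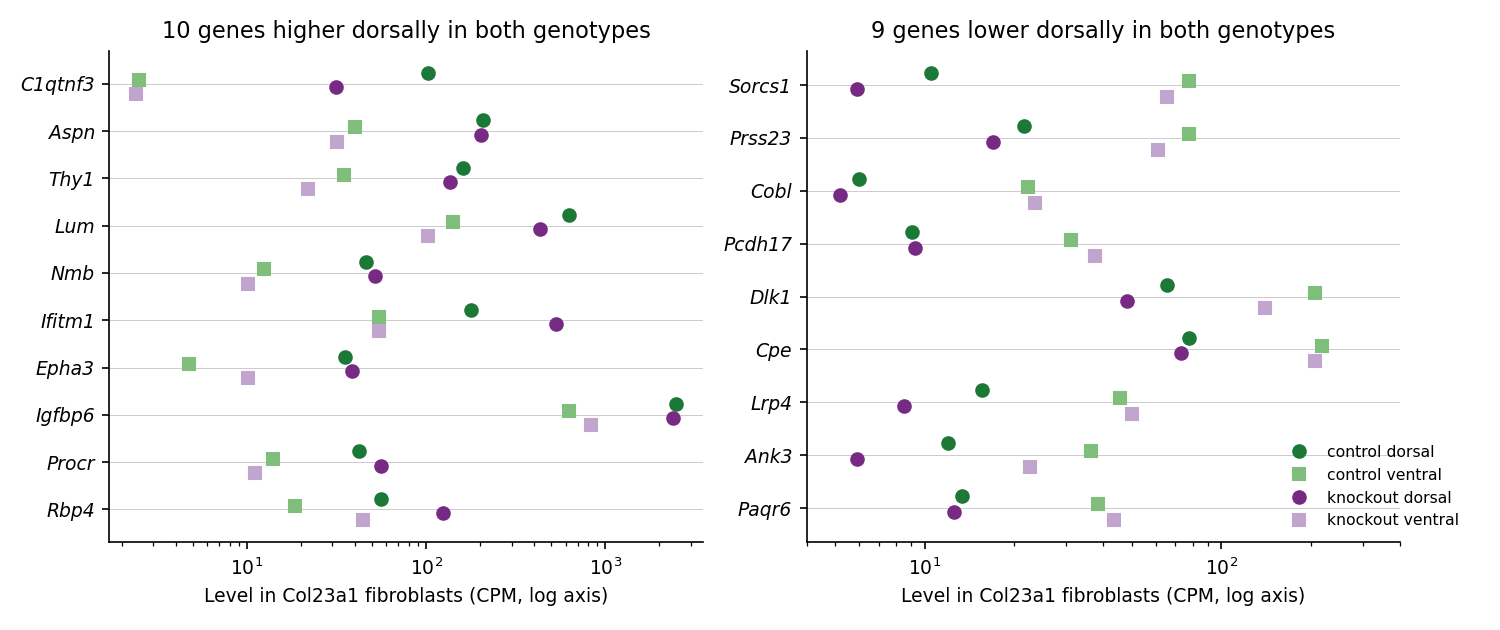
CPM in Col23a1 fibroblasts of each library (log axis) for 10 genes named as higher dorsally and 9 named as lower, circles for dorsal and squares for ventral libraries. For each gene both circles lie on the same side of both squares, with C1qtnf3 and Sorcs1 at the top of the 2 panels.

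Of the measured interferon list, 7 of 35 were 2-fold higher in control dorsal than in control ventral members (all genes, 1.48%), and none when clusters 6 and 7 were left out. In the knockout pair 7 of 33 were 2-fold lower dorsally, with and without those clusters (all genes, 13.1%). In other fibroblasts 4 of 33 in controls and 2 of 33 in knockouts were higher dorsally and none was lower, with the shares over all genes there not given here. Ifit3 was 128, 40.3, 12.9 and 21.9 CPM, and dorsal over ventral was 3.17 in controls (1.24 without clusters 6 and 7) and 0.59 in knockouts (1.03 without members positive for Pi16 or Dpp4). Nfkb1, a subunit of the inflammatory factor NF-kappaB, was 1181, 1349, 116 and 998 CPM, with the knockout dorsal library alone being low, and other fibroblasts had 641, 410.3, 131 and 386 CPM. Il31ra, a receptor subunit for interleukin-31, was 24.6, 74.4, 102 and 31.6 CPM, higher ventrally in controls and dorsally in knockouts. Camk1d, a calcium-dependent kinase, was 652, 1581, 1177 and 879.9 CPM and 776, 1401, 1132 and 888 CPM in members and other fibroblasts.

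Between genotypes, the ventral pair of libraries differed little in members and the dorsal pair more. In the ventral pair 0.377% of 6896 genes were at least 2-fold higher in the knockout and 0.363% at least 2-fold lower. In the dorsal pair 1.79% of 6826 genes were higher and 7.57% lower. Both pairs, which share no library, held 8 of 6488 genes 2-fold higher (0.123%) and 16 lower (0.247%). In the dorsal pair the median log2 ratio was 0.23 for genes up to 2362 bases and -0.34 for genes from 4550 bases, and in the ventral pair, with like limits, it was 0.10 and 0.00. A difference in how the libraries were made and a difference of genotype cannot be told apart with 1 library of each.

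Several clock genes were lower in both knockout libraries. Dbp, a clock-controlled transcription factor, was 45.5, 37.2, 3.7 and 5.59 CPM, and knockout over control was 0.0813 (0.0384 to 0.153) in the dorsal pair and 0.15 (0.104 to 0.211) in the ventral pair. Nr1d1, the nuclear receptor REV-ERBalpha that represses the clock's activators, was 134, 135, 24.8 and 47 CPM, with ratios of 0.185 (0.141 to 0.239) in the dorsal pair and 0.348 (0.307 to 0.394) in the ventral pair. Npas2, an activator of the clock, was 21.1, 27.6, 49.2 and 63.2 CPM and ran the other way, with ratios of 2.33 (1.77 to 3.09) in the dorsal pair and 2.29 (1.97 to 2.67) in the ventral pair. Of the 18 clock genes measured, 8 were 2-fold lower and 1 higher in the dorsal pair, and 5 lower and 1 higher in the ventral pair, against 9.41% and 2.55%, then 2.44% and 1.48%, of all genes. Other fibroblasts had 8 and 7 of 18 lower (all genes, 8.80% and 2.41%), and epithelial cells 5 and 1 of 19 (all genes, 9.79% and 5.29%). No source used here states the hour at which tissue was taken, and a different hour and a genotype effect cannot be told apart. The E-box CACGTG, which clock activators bind, lay in the 250 bases before the start of 5 of 16 clock genes with a RefSeq entry and of 6.86% of all genes.

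Wnt16, which set members apart, was also lower in both knockout libraries. Its level of 100, 136, 22.2 and 59.7 CPM gave knockout over control ratios of 0.222 (0.166 to 0.291) in the dorsal pair and 0.438 (0.391 to 0.49) in the ventral pair. Other fibroblasts, with low levels of 5.0, 6.14, 3.54 and 2.35 CPM, were also lower in both knockout libraries. In cells thinned to 6000 UMIs a Wnt16 UMI was found in 21.4%, 20.4%, 8.55% and 11.2% of members. Within cluster 2 it was 564 CPM in the control ventral and 364 CPM in the knockout ventral library, and the share of members in that cluster was 19.7% and 12.7%. Other genes of the Wnt16 group were nearer to 1: Notum had ratios of 0.846 (0.691 to 1.03) in the dorsal pair and 0.848 (0.764 to 0.941) in the ventral pair and Hhip of 0.661 (0.611 to 0.715) in the dorsal pair and 0.828 (0.787 to 0.87) in the ventral pair. Col23a1 itself had ratios of 0.551 and 0.696 in members, as a value the rule used.

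Other genes lower in both knockouts were Myoc, Slc15a2, Hmox1 and Cxcl10. Myoc, the matrix protein myocilin, was 224, 396, 22.9 and 153 CPM. Its ratios were 0.102 (0.0778 to 0.132) in the dorsal pair and 0.385 (0.359 to 0.413) in the ventral pair, and those in other fibroblasts were 0.382 and 0.70. Cluster 1 had 923 CPM of Myoc, against 61.8 CPM in other members. That cluster held 10.4%, 35.1%, 0% and 26.3% of the members of the 4 libraries, and its part in the Myoc ratios was not tested. Hmox1, which breaks down heme, was 386, 726, 95 and 353 CPM. Slc15a2, a peptide transporter, was 27.8, 24.8, 2.59 and 3.48 CPM. Each was lower in both knockout libraries than in both controls. Cxcl10 was 358, 261, 88.7 and 134 CPM, with ratios of 0.248 (0.215 to 0.284) in the dorsal pair and 0.513 (0.475 to 0.554) in the ventral pair. Without clusters 6 and 7 its dorsal ratio was 0.420. Other fibroblasts had Cxcl10 at 50.4, 41.1, 40.1 and 18.4 CPM, also lower in both knockout libraries. For the interferon list as a whole 17 of 35 genes were 2-fold lower in the dorsal pair and 1 of 35 in the ventral pair, against 9.41% and 2.44% of all genes. Without clusters 6 and 7 the counts were 12 of 33 and 0 of 35, with the shares over all genes for that setting not given here. In other fibroblasts they were 3 of 33 and 0 of 31 (all genes, 8.80% and 2.41%), and in epithelial cells 5 of 34 and 9 of 35 (all genes, 9.79% and 5.29%).

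The genes higher in both knockouts included enzymes and a stress gene. Dpep1, a dipeptidase of the cell surface, was 8.62, 11.2, 55.8 and 42.2 CPM, with ratios of 6.48 (4.48 to 9.6) in the dorsal pair and 3.76 (3.02 to 4.71) in the ventral pair. Gsta3, a glutathione transferase, was 45, 27.9, 150.4 and 86.9 CPM, and Fmo2, a flavin monooxygenase, 566, 510.3, 1120 and 1187 CPM. Ddit4, an inhibitor of mTORC1 that glucocorticoids and low oxygen induce, was 79.9, 70.2, 224 and 162 CPM. All 4 genes stood higher in both knockout libraries than in both controls, in other fibroblasts too: ratios there were 3.92 and 3.39 for Dpep1, 4.06 and 2.33 for Gsta3, 2.46 and 2.58 for Fmo2 and 2.25 and 2.34 for Ddit4. Of the glucocorticoid-responsive genes measured, 2 of 19 were 2-fold higher in the dorsal pair (Ddit4 and Tsc22d3) and 3 of 20 in the ventral pair (Ddit4, Fkbp5 and Hif3a), against 2.55% and 1.48% of all genes, and none was 2-fold lower. Tsc22d3, which encodes the glucocorticoid-induced leucine zipper, was 226, 167, 457 and 296 CPM, and Fkbp5, a chaperone of the glucocorticoid receptor, 29.9, 49.3, 47.3 and 106 CPM.

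Interstitial collagens were lower in the knockout dorsal library. Of 14 measured, 11 were 2-fold lower in the dorsal pair and none in the ventral pair, against 9.41% and 2.44% of all genes. Genes with long transcripts were lower in the dorsal pair, and the part of length in these counts was not tested. Col1a1 was 1488, 975, 563 and 554 CPM in members, with ratios of 0.378 (0.358 to 0.40) in the dorsal pair and 0.568 (0.547 to 0.59) in the ventral pair, and Col3a1 1170, 667, 319 and 400.5 CPM. Their levels in both knockout libraries lay below both controls. In other fibroblasts 12 and 6 of 15 collagens were 2-fold lower, against 8.80% and 2.41% of all genes there, and Col1a1 had ratios of 0.276 and 0.264. In epithelial cells 12 and 3 of 17 were 2-fold lower, against 9.79% and 5.29%. Across genes, knockout over control in members followed that in other fibroblasts, with Pearson's r of 0.872 in the dorsal pair and 0.733 in the ventral pair (6822 and 6877 genes, which are not independent and share libraries and depth).

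**Figure D5:**
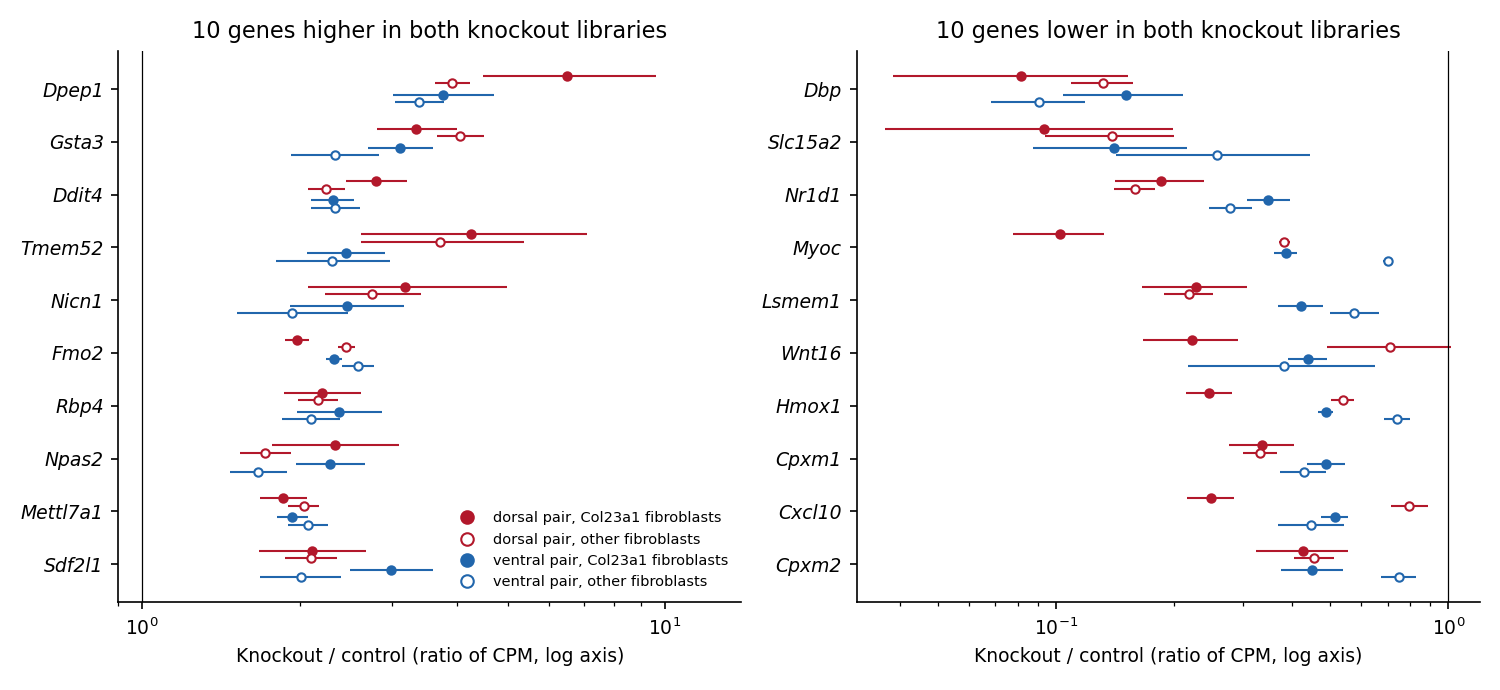
Knockout over control ratio of CPM (log axis) for the 10 genes named as higher and the 10 named as lower in both pairs, filled points for Col23a1 fibroblasts and open points for other fibroblasts, with 95% counting intervals. Filled and open points lie on the same side of 1 for all 20 genes, and in the dorsal pair Myoc, Wnt16, Hmox1 and Cxcl10 lie further from 1 in Col23a1 fibroblasts than in other fibroblasts. In the ventral pair this holds for Myoc and Hmox1, while Wnt16 and Cxcl10 lie further from 1 in other fibroblasts.

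Some genes differed 2-fold in the dorsal pair and by less, or the other way, in the ventral pair. Has1 was 784, 552, 216 and 658 CPM, with ratios of 0.276 (0.252 to 0.301) in the dorsal pair and 1.19 (1.15 to 1.24) in the ventral pair. Timm22, a mitochondrial import protein, was 41.9, 50.7, 237 and 28.4 CPM, Heph 459, 916, 1372 and 635 CPM and Grik3, a kainate receptor subunit, 578, 1093, 2079 and 1233 CPM. Ventral knockout over control was 0.56 (0.472 to 0.663) for Timm22, 0.693 (0.668 to 0.719) for Heph and 1.13 (1.1 to 1.16) for Grik3. In each of them the knockout dorsal library was the lowest (Has1) or the highest (Timm22, Heph and Grik3) of the 4. Other fibroblasts had the same highest library, with Timm22 at 42.1, 67.5, 143 and 48.4 CPM, Heph at 436, 888, 1432 and 738 CPM and Grik3 at 568, 941, 1866 and 1142 CPM. The GFP transcript, which the design places in dividing basal cells and their progeny, was 116, 117, 113 and 93 CPM in members, against 712, 603, 424 and 259 CPM in basal cells.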

How the data were processed

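Single-cell RNA of 4 libraries was deposited as matrices of raw UMI counts for 33697 features, made by the authors with Cell Ranger 10.0.0 and GRCm39 (submitters' processing notes, as listed per the labels). Annotation and cell calling: not given in the sources used here. Barcodes under 500 genes or above 15% mitochondrial UMIs were removed, and members were found by the rule given in the report. The members, gene lists and named-gene rule were chosen with earlier results of these data known. Counts were summed per class and library and given as CPM. Shares have exact Clopper-Pearson intervals and ratios conditional binomial intervals, at 95%, for counting error only (scipy 1.17.1). Members held 4178957, 10332396, 2705295 and 6614710 UMIs in the 4 libraries, in the order of the report. Genes were called at 2-fold with at least 20 CPM and 50 UMIs in 1 of the libraries compared. List genes needed 20 UMIs. The genes named were the 15 each way (members against other fibroblasts) or 10 each way (both regional or both genotype pairs) on the same side in all, ranked by the interval bound nearest to 1, up to 5 per pair and direction that differed in that pair alone, up to 4 leading genes of each list, and genes that define a pathway. They had at least 10% of the level in the highest other cell class and left out mitochondrial, ribosomal, sex-linked and handling genes. Some list members are named for their role after their values were seen. 1 gene that the rule named is not reported here. Clusters came from Leiden at resolution 0.5 on 30 components and 20 neighbours (scanpy 1.11.5, leidenalg 0.10.2). The calculations were tested on simulated data. Doublets were called with Scrublet and kept, as the rule has it. Alternatives changed the Col23a1 threshold, depth, scaling, filters, doublets and cluster resolution. The fibroblast threshold of 20, the candidates as comparison, and leaving out clusters 6 and 7 or Myh11 cells were chosen after seeing the data. Promoter sequences are from RefSeq, GRCm38.p6.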

Additional observations from a re-analysis of the deposited data

Results flagged for a closer look

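Il31ra, a subunit of the interleukin-31 receptor, went in opposite directions in the pairs. In members it was 24.6, 74.4, 102 and 31.6 CPM. Dorsal over ventral was 0.331 in controls and 3.24 in knockouts, and knockout over control was 4.15 dorsally and 0.425 ventrally. It drew attention because the effect of region has opposite signs in the 2 genotypes, and that difference was not tested. Other fibroblasts had 23.8, 69.8, 96.8 and 28.4 CPM, the same order of libraries.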

How the results depend on the processing

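The share of members moved with the threshold. At 1 Col23a1 UMI it was 32.3%, 56.0%, 23.1% and 48.0%, and at 3 UMIs 18.6%, 44.9%, 10.1% and 35.0%. Thinned to 6000 UMIs the knockout dorsal share was 11%. At 20 fibroblast UMIs per 10000, the control ventral, knockout dorsal and knockout ventral shares were 46.3%, 12.7% and 36.1%. The order of libraries held in each. Of the 74 genes higher than in other fibroblasts, the count was 46 with members at 1 UMI and 170 without the filter beyond 10 UMIs. Without that filter, 224 genes were lower than in other fibroblasts, 85 higher and 453 lower dorsally, and 32 higher and 124 lower in both knockouts. Leaving out members with Pi16 or Dpp4 gave 13 genes higher dorsally and 3 higher in both knockouts. At resolution 1 there were 13 clusters. No main result reversed. Of the values of main results under other settings, 59 stayed within 1.5 times or within counting error and 22 moved further. Of the other comparisons between settings, 3910 stayed and 675 moved. Of 2460 values of named genes under other settings, 157 moved by over 1.5-fold. Among the 2460, 7 values, from 4 genes, crossed 1 (Ifit3, Kirrel3, Stx11 and Mx2, each in a pair where it was under 2-fold), and none that was 2-fold did. Low counts limit genes near 0, such as Isl1 dorsally. No paired analysis was possible because the groups share no replicate numbers in the labels and no result comes from a test; each regional and genotype pair is given by itself.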
